A study of Mus musculus with 6 samples.

Results

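This account describes the transcriptome of mouse alveolar macrophages that received no stimulus: 2 control libraries out of the 6 RNA-seq libraries of the study. They were chosen by their label alone, as the 2 control columns of the deposited count table, and every gene listed there was ranked by its mean counts per 1000000 counts (CPM) over both. The cells were wild-type alveolar macrophages collected fresh by lung lavage. The other 4 libraries, 2 from cells given LPS (100 ng/mL, 4 h) and 2 from cells given LPS plus vitamin D3 (VD3, 50 nM), enter no value below, except where 1 pair of genes was checked for identical counts. The sources used here do not state how long the control cells were held in culture, nor whether the libraries came from separate mice, so the spread between them may be technical. One group has no contrast to test, so levels, shares and the difference between both libraries are given as descriptions.

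Alveolar macrophages live in the airspaces, where they take up inhaled particles and the lipid-rich surfactant that lines the lung, and digest both in lysosomes. Their identity is known to depend on GM-CSF and TGF-beta, which maintain the lipid-handling nuclear receptor PPAR gamma. Mouse alveolar macrophages are known for the surface lectin Siglec-F, the scavenger receptor MARCO and the integrin CD11c.

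The libraries held 5022314 and 5454955 counts over 23413 listed genes. A gene with 0 counts could therefore lie anywhere up to 0.597 CPM in control 1 and 0.550 CPM in control 2 (3 counts of each total, counting error only). In all, 10729 genes reached 1 CPM in both libraries and 9347 had no count in either. Across the 3871 genes with a mean of at least 50 CPM, 95.3% lay within 1.2-fold between libraries, and Pearson's r of log2 CPM was 0.994 (across genes, which are not independent replicates). The libraries were not copies of each other. Over 11115 genes, the squared differences between their counts were on average 2.45 times those that counting error alone gives (chi-square per degree of freedom). This average includes the ribosomal RNA precursor Rn45s, which differed widely between libraries.

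Every one of the 25 genes taken as alveolar macrophage markers exceeded 10 CPM in both libraries, and together they summed to 45345 and 45471 CPM. The list was chosen with earlier results of these data known, so its full detection is a description and not a test. Much of the sum came from Chi3l3 (17819 and 17216 CPM), which is left out of the monocyte sum below, and Lpl (7494 and 8061 CPM). Pparg, which encodes PPAR gamma, had 761 and 911 counts (152 and 167 CPM). Siglec5, the table's symbol for the gene of Siglec-F, had 1243 and 1290 counts (247 and 236 CPM). Marco had 8363 and 8985 counts (1665 and 1647 CPM). Fabp5, a cytosolic fatty acid carrier, had 3221 and 3531 counts (641 and 647 CPM). All 4 genes were well above the level that 0 counts allow, and each differed by little between libraries. Itgax, which encodes CD11c, stood at 2506 and 2464 CPM, and Car4, a membrane-bound carbonic anhydrase, at 1081 and 1062 CPM. The lowest of the 25 was Cidec, a lipid droplet protein, with 75 and 74 counts.

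Most markers of other cells were low or at 0. The interstitial and other tissue macrophage list summed to 49.2 and 48.9 CPM over 17 genes, with its highest member Mmp14 at 92 and 85 counts. Timd4 and Vsig4 were at 0 counts, and C1qa, C1qb and C1qc at 10 counts or fewer in each library. The monocyte list without Chi3l3, which alveolar macrophages share, summed to 49.0 and 53.9 CPM, with Ly6c2, Ly6c1, Plac8, F13a1 and Cd177 among those at 0. Of 14 listed neutrophil markers 7 were at 0, among them S100a9, Mpo and Elane, and the list summed to 73.3 and 76.4 CPM, mostly from Mmp8 (247 and 304 counts). The dendritic cell list summed to 38.4 and 45.6 CPM, mostly from Clec9a (92 and 143 counts) and Batf3 (58 and 60 counts), with Flt3, Siglech and Kit at 0. The eosinophil, basophil and mast cell list had 10 of 11 genes at 0. For lymphocytes the sum was 34.2 and 35.4 CPM, mostly from Il7r (156 and 174 counts), with Cd3e at 0. The erythroid and platelet list summed to 12.5 and 10.4 CPM, mostly from Pf4 (54 and 52 counts).

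The lung epithelium list was the highest of the other cells, at 303 and 323 CPM, with Cdh1 (1295 and 1485 counts) and Krt19 (161 and 203 counts) holding most of it, while the surfactant protein genes Sftpc and Sftpa1 were at 0. The stromal and endothelial list summed to 62.5 and 63.2 CPM, nearly all of it Vwf (285 and 325 counts), with Col1a1, Col3a1, Pdgfrb and Tek at 0. Which cells the counts of Cdh1, Krt19, Vwf, Mmp8, Il7r, Clec9a, Ace, Treml4 and the other markers named with counts came from was not tested. In such bulk libraries, fewer cells of a type and less RNA per cell cannot be told apart.

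**Figure D1:**
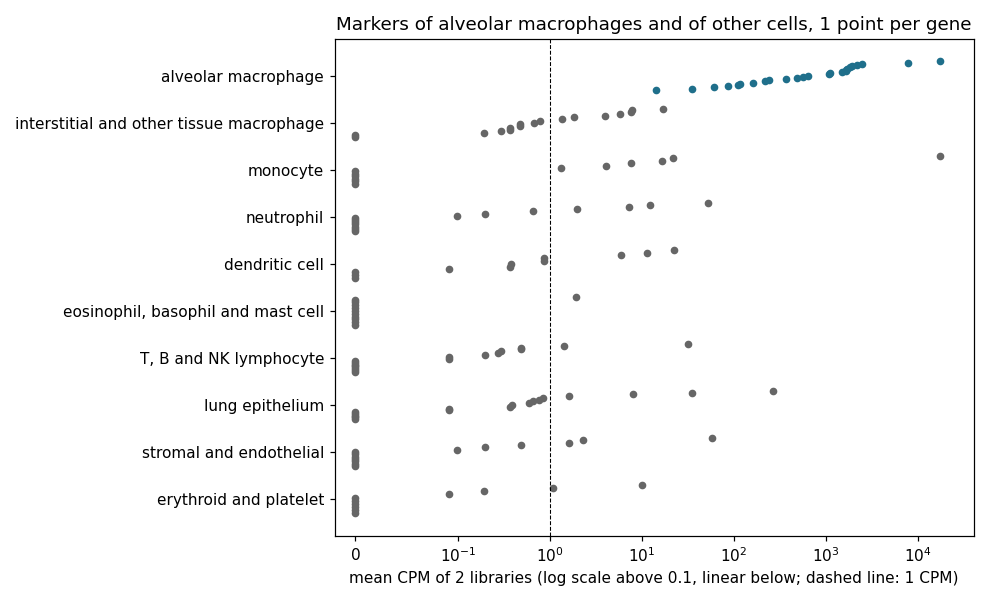
Mean CPM over both control libraries (x axis, logarithmic above 0.1 CPM and linear below) of each marker gene, 1 point per gene, grouped by cell type on the y axis. All 25 alveolar macrophage markers lie to the right of 10 CPM, while the other lists spread down to 0; the 1 point far to the right in the monocyte row is Chi3l3, which both lists hold.

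The RNA was concentrated in few genes. The 10 most abundant genes held 12.2% of all counts, the 100 most abundant held 28.4%, and 551 genes held as many counts as all others together. By mean CPM, 94 genes reached 1000 CPM, 1915 lay between 100 and 1000, and 6200 between 10 and 100. The first row was Rn45s, the ribosomal RNA precursor, with 25029 CPM in control 1 and 31973 CPM in control 2, the widest gap between libraries among the 30 most abundant genes.

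Below Rn45s, the ranking by CPM opened with secreted and iron-storing proteins. Chi3l3 (now Chil3), which encodes the chitinase-like protein Ym1, had 17819 and 17216 CPM. Lyz2, the macrophage lysozyme, had 12928.5 and 11632 CPM. Fth1 and Ftl1, the heavy and light chains of the iron store ferritin, had 12426 and 12013 CPM and 10232 and 9301 CPM. Between them came Actb, cytoplasmic beta actin, at 10233 and 9960.1 CPM. Ccl6, a CC chemokine, followed at 9719 and 9742 CPM.

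Next in that ranking came genes of lipid and lysosomal breakdown. Lpl, lipoprotein lipase, had 7494 and 8061 CPM, Psap, the precursor of the saposins that help degrade sphingolipids, 7801 and 7573 CPM, and Ctsd, the lysosomal protease cathepsin D, 6543 and 6403 CPM. Then followed Eef1a1 (6469 and 6416 CPM), a translation elongation factor, and Spp1 (5331 and 5624 CPM), which encodes osteopontin. Clec7a, the beta-glucan receptor dectin-1, stood at 4450 and 4593 CPM, and Mmp12, macrophage elastase, at 4321 and 4367 CPM. Of the 30 highest genes of each library, 29 were shared.

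A long transcript collects more reads than a short one at the same number of molecules, so levels of different genes are compared below only per kilobase, as transcripts per 1000000 (TPM, from the longest annotated transcript). Within a functional class, the genes named are those with the most counts (CPM), which is not an order of level, and mean TPM is given where it puts the named genes in another order. On the TPM scale the highest levels were Chi3l3 (29754 ± 223, SD, n = 2), Ftl1 (26364 ± 1332), Lyz2 (24383 ± 1409), Ccl6 (17667 ± 328) and Fth1 (15491 ± 109). These were followed by Actb (13747 ± 31.2), Tmsb4x (13558 ± 604), which encodes the actin-sequestering peptide thymosin beta 4, Spp1 (9506 ± 520), Eef1a1 (9389 ± 103) and Ctsd (7955 ± 12.7). The values of Actb and Tmsb4x overlapped between libraries, as did those of Spp1 and Eef1a1. Ftl1 and Lyz2 did not overlap, but the lower Ftl1 value (25422 TPM) was close to the higher Lyz2 value (25379 TPM). The order of Ccl6 and Fth1 turned with the length: with protein-coding lengths Fth1 averaged 19880 TPM and Ccl6 16427 TPM.

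**Figure D2:**
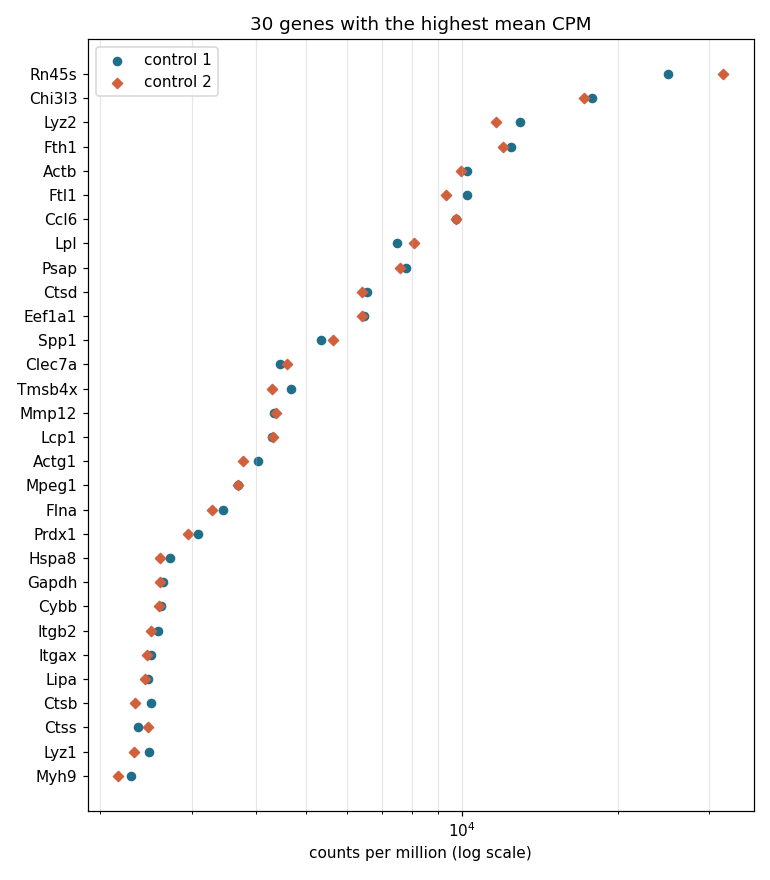
CPM (x axis, log scale) of the 30 genes with the highest mean CPM (y axis) in control 1 (circles) and control 2 (diamonds). The symbols lie close together for each gene except Rn45s, at 25029 and 31973 CPM.

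Sorted into 31 functional classes, 971 genes held 34.7% of the counts. Numbers of members at 1 CPM or at 0 counts, given below for classes and families, have as background all 23413 listed genes. Of those, 10729 reached 1 CPM in both libraries and 9347 had no count. The largest class was the actin cytoskeleton, at 5.14% ± 0.0996 of all counts (SD, n = 2), followed by ribosomal proteins (3.39% ± 0.182) and by chitinase-like proteins, lysozymes and ribonucleases (3.33% ± 0.142). Ferritin, iron and heme genes held 2.72% ± 0.111. The 3 lysosomal classes and the V-ATPase, the proton pump that acidifies lysosomes, held 1.95% (hydrolases and activators), 1.77% (proteases), 0.662% (V-ATPase) and 0.661% (membrane proteins). As a share of TPM, which counts short messages more heavily, ribosomal proteins came first, at 7.96% ± 0.320.

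**Figure D3:**
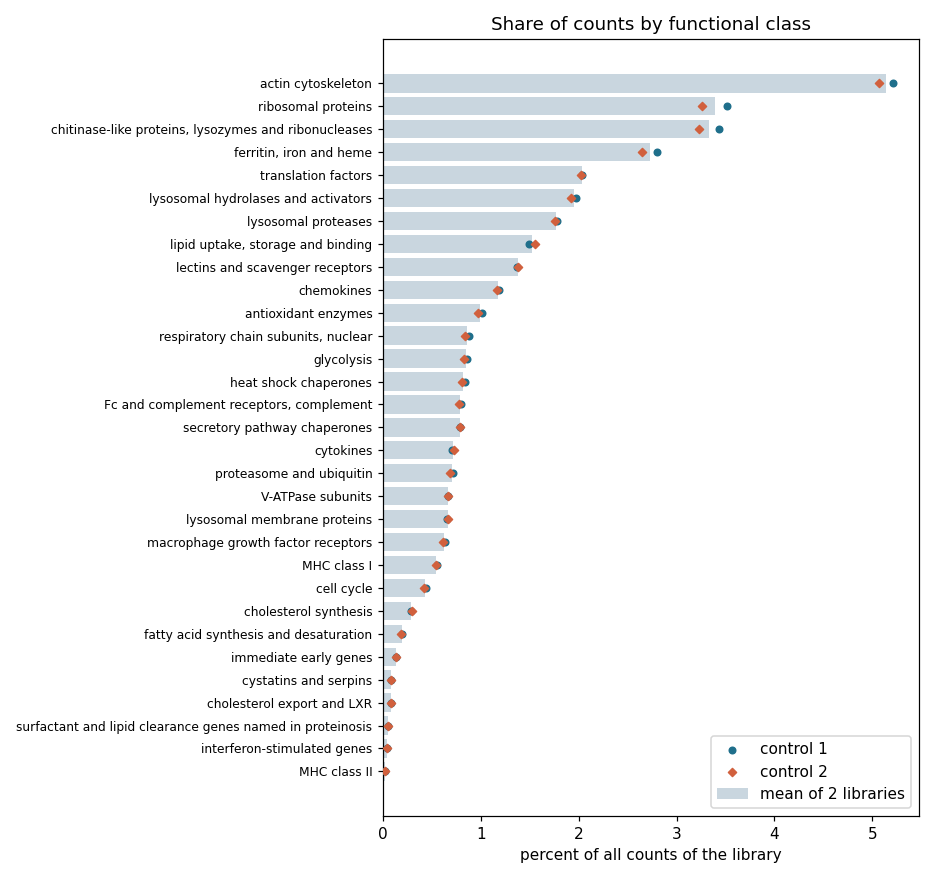
Percent of all counts of a library (x axis) held by each of 31 functional classes (y axis), as the mean of both libraries (bars) and for each library (symbols). The actin cytoskeleton leads at 5.14%, and MHC class II is last at 0.0238%.

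All 44 listed lysosomal hydrolases and activators reached 1 CPM in both libraries, as did 17 of 19 lysosomal proteases and 22 of 23 lysosomal membrane proteins. After Psap, the most counts of the hydrolase class were on Lipa (2474 and 2444 CPM), the acid lipase that splits cholesteryl esters, Gpnmb (1156 and 1182 CPM), a glycoprotein of the endosomal and lysosomal membrane, and Grn (807 and 803.5 CPM), the progranulin gene. Per kilobase Grn (899 TPM) stood above Gpnmb (826 TPM). Ctsd took 99.4% of the aspartic cathepsin family per kilobase, against 138 counts of Napsa in each library and none of Ctse. The cysteine cathepsins were mixed: per kilobase Ctss had 4517 and 4819 TPM, Ctsk 2582 and 2546 TPM, Ctsz 1987 and 2012 TPM and Ctsb 1365 and 1302 TPM. Their order rests on the length used, since Ctsb led under the shortest transcript and the coding length. With no length Ctsb (2507 and 2334 CPM) and Ctss (2369 and 2468 CPM) were close, and the leader differed between libraries.

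In the membrane class, the most counts were on Laptm5 (1694 and 1678 CPM), Lamp1 (1266 and 1307 CPM), Cd68 (893 and 898 CPM) and Lamp2 (513 and 578 CPM). The first is a lysosomal transmembrane protein of blood cells, and the other 3 belong to the LAMP family of lysosomal membrane glycoproteins. Per kilobase the order was Cd68 (1904 TPM), Laptm5 (1695 TPM), Lamp1 (1509 TPM) and Lamp2 (396 TPM).

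Most V-ATPase subunits come in paralogues, of which one is usually widespread and others tissue-restricted. Atp6v0d2, the d subunit known from osteoclasts, had 10477 and 12129 counts (2123 and 2317 TPM), and the widespread Atp6v0d1 had 1327 and 1311 counts (419 and 390.3 TPM). Atp6v0d2 thus held 83.5% and 85.6% of the d subunit per kilobase, and 84.5% to 91.9% over 5 choices of transcript length. For the B, E and C subunits the widespread form led: Atp6v1b2 held 100% of the B subunit with Atp6v1b1 at 0 counts, Atp6v1e1 held 100% of the E subunit, and Atp6v1c1 held 99.9% of the C subunit. For the a subunit, Tcirg1, the form known from osteoclasts (215 and 208 TPM), stood above the widespread Atp6v0a1 (174 and 170 TPM), but Atp6v0a1 led under the coding length and with no length.

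The d subunit paralogues share 65.7% of their aligned coding bases, with no identical run above 17 bases.

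Lysosomal genes are known targets of the MiT/TFE transcription factors, which bind a core E-box, CACGTG, a letter sequence that reads the same on both strands and is also bound by other factors. All 4 MiT/TFE genes were measured above 1 CPM. Tfec led with 1258 and 1304 counts (191 and 187 TPM), followed by Mitf (70.7 and 76.2 TPM), Tfeb (41.1 and 40.6 TPM) and Tfe3 (35.7 and 36.2 TPM). The order of Tfeb and Tfe3 turned with the length: with protein-coding lengths Tfe3 averaged 62.4 TPM and Tfeb 38.0 TPM. The motif, which was chosen after the levels had been seen, occurred in the 250 bases upstream of the start in 21 of the 88 lysosomal and V-ATPase genes, of 111 listed, with a RefSeq promoter (23.9%). The share was 7.78% over all 17252 promoters, 10.4% over genes at 1 CPM or more in both libraries, 8.70% over the respiratory chain genes and 5% (1 of 20) over the alveolar macrophage markers. A second motif, GAGGAAGT, of the type bound by ETS factors such as PU.1, was searched on both strands. It occurred in 0 of those 20 marker promoters, in 4.55% of the lysosomal and V-ATPase ones and in 2.70% of all. A match is a description of these letters, not of binding.

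The printed promoter stretches are those of the 4 genes with the highest CPM among lysosomal genes where the motif stood well inside the window, with every occurrence of CACGTG in capitals (RefSeq, GRCm38, strand of the gene). They come from Lamp1 (chr8:13159083-13159122, plus strand), Atp6v1a, the V-ATPase A subunit (chr16:44139368-44139407, minus strand), Lgmn, the protease legumain (chr12:102439119-102439158, minus strand) and Ifi30, a lysosomal thiol reductase (chr8:70766837-70766876, minus strand).
Lamp1: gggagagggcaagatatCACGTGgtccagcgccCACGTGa
Atp6v1a: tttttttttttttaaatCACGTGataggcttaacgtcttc
Lgmn: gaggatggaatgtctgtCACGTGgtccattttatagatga
Ifi30: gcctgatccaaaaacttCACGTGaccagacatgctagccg
The first occurrence began 61, 131, 49 and 196 bases upstream of the annotated start, the second one of Lamp1 began 45 bases upstream, and these genes stood at 1286.5, 491, 268 and 266 CPM on average.

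Genes of lipid uptake, storage and binding held 1.52% ± 0.0460 of the counts, and 36 of 45 reached 1 CPM. Lpl alone made up 51.0% of the class and 99.99% of its own family per kilobase, with Lipc at 1 and 3 counts and Lipg at 1 count in each library. Cd36, a receptor for fatty acids and oxidised lipoprotein, had 1232 and 1343 CPM, and Olr1, another receptor for oxidised lipoprotein, 1069.8 and 1125 CPM. Plin2, the coat protein of lipid droplets outside fat tissue, had 833 and 791 CPM and held 92.6% of the perilipins, while the fat cell form Plin1 had 5 and 7 counts. Per kilobase Plin2 (1124 TPM) stood above Cd36 (991 TPM) and Olr1 (803 TPM).

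Among cytosolic fatty acid carriers, Fabp5 led with 66.3% ± 0.594 per kilobase (66.3% to 80.5% over the length choices). Fabp1, the liver form, had 174 and 194 counts (162 and 170 TPM), and Fabp4, the fat cell and macrophage form, had 559 and 606 counts (68.0 and 69.5 TPM). Which of these came second depends on the length, because the longest annotated Fabp4 transcript, of 4231 bases, is not its protein-coding one, of 896 bases. With protein-coding lengths Fabp4 averaged 302 TPM. Fabp7 had 56 and 42 counts, and Fabp2 and Fabp6 had none.

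Fatty acid synthesis genes held 0.189% of the counts. Scd2, a stearoyl-CoA desaturase, had the most counts of its class (480 and 495 CPM) and held 93.6% of its family, against 125 and 143 counts of Scd1 (73.5% to 94.5% over the length choices). Acly, which supplies cytosolic acetyl-CoA, had 439 and 430 CPM, Fasn, fatty acid synthase, 250.3 and 235 CPM, and Acaca, acetyl-CoA carboxylase, 204 and 199.8 CPM. Per kilobase Acly (257 TPM) stood above Scd2 (234 TPM). All 23 cholesterol synthesis genes reached 1 CPM and together held 0.290%, with the most counts on Hmgcs1 (297 and 325 CPM), Idi1 (253.5 and 294 CPM) and Cyp51 (262 and 279 CPM). Per kilobase Idi1 (237 TPM) and Hmgcs1 (235 TPM) were close.

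The cholesterol export class was uneven. Abcg1, a transporter that exports cholesterol, had 2799 and 3085 counts and made up 70.9% of the class. Abca1, the other main cholesterol exporter of macrophages, had 85 and 86 counts, and the lipoprotein gene Apoe had 44 and 43 counts. Per kilobase, Abcg1 stood at 247 and 257 TPM and Abca1 at 4.26 and 4.06 TPM. The LXR genes, whose receptors are known to induce both transporters, were near each other: Nr1h3 had 55.2 and 43.7 TPM and Nr1h2 38.3 and 38.1 TPM, and Nr1h2 led under the shortest transcript.

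All 9 genes listed for a link to pulmonary alveolar proteinosis, the build-up of surfactant, or to surfactant lipid clearance were above 1 CPM. Csf2rb, the GM-CSF receptor beta chain, had the most counts, at 1640 and 1478 CPM, and Abcg1 the next most, at 557 and 566 CPM. Sfpi1, which encodes the myeloid factor PU.1, had 249.9 and 243 CPM, and Csf2ra, the receptor's alpha chain, 258 and 235 CPM. Per kilobase Csf2rb (831 TPM) also came first, followed by Sfpi1 (317 TPM), Csf2ra (283 TPM) and Abcg1 (252 TPM). The fewest counts were on Bach2, at 6 and 11 counts.

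The GM-CSF receptor beta chain has a mouse paralogue, Csf2rb2, which serves IL-3 only. Csf2rb had 8238 and 8061 counts and Csf2rb2 had 2929 and 3009, so Csf2rb held 73.1% and 72.2% per kilobase. Their coding sequences are 92.9% identical with a longest identical run of 242 bases, so short reads from such runs cannot be placed with certainty, and the split is uncertain. The first 90 coding bases differ at 3 positions (capitals; Csf2rb at chr15:78325752-78353847, plus strand, and Csf2rb2 at chr15:78282507-78305721, minus strand).
Csf2rb: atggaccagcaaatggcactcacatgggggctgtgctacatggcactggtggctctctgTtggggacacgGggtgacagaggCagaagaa
Csf2rb2: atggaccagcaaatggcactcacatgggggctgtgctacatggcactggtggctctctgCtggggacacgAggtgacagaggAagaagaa

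In the iron class Fth1 and Ftl1 held most counts, and which chain led depended on the length: Ftl1 had 63.0% of the family per kilobase of the longest transcript, and Fth1 led under the shortest transcript, the coding length and with no length. Lrp1, a receptor that also clears heme-hemopexin, had 2253 and 2076 CPM, and Ncoa4, the receptor that delivers ferritin to lysosomes, 868 and 906 CPM. Per kilobase Ncoa4 (490.0 TPM) stood above Lrp1 (380 TPM). Antioxidant enzymes held 0.989%. Prdx1, a peroxiredoxin, had 3090.0 and 2947 CPM and 80.1% of its family. Txnrd1, thioredoxin reductase, had 825 and 783 CPM, Slc7a11, the cystine importer, 617 and 691 CPM, and Mt1, a metallothionein, 567 and 509 CPM. Per kilobase Mt1 (1295 TPM) stood above Txnrd1 (580 TPM) and Slc7a11 (185 TPM).

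Among secreted proteins, Chi3l3 held nearly all of its family. Chi3l4, which encodes the close relative Ym2, had 28 and 12 counts against 89494 and 93912 of Chi3l3, and Chi3l1, Chia and Chit1 had none. Lyz2 had 64931 and 63454 counts and Lyz1, the lysozyme of Paneth cells, 12491 and 12650, which gave Lyz2 83.3% and 82.8% of lysozyme per kilobase. Coding sequences were 94.4% identical for Chi3l3 and Chi3l4 and 95.045% for Lyz2 and Lyz1. The longest identical runs were 136 and 118 bases. These sequences are shown because reads of each pair can be told apart only at the bases that differ (first 90 coding bases, capitals at differences).
Chi3l3: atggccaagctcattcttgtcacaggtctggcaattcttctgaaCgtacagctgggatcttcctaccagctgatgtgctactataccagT
Chi3l4: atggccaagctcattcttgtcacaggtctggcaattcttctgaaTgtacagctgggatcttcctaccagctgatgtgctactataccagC
Lyz2: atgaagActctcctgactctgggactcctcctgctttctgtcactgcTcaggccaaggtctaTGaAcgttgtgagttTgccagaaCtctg
Lyz1: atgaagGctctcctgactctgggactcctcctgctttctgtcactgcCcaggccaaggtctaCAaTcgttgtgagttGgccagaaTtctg
The Chi3l3 stretch differs from that of Chi3l4 at 2 positions and the Lyz2 stretch from that of Lyz1 at 7. Chi3l3 lies at chr3:106147554-106167564 and Chi3l4 at chr3:106201490-106219507, Lyz2 at chr10:117277331-117282321 and Lyz1 at chr10:117287797-117292868, each on the minus strand.

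The Ear genes, which encode eosinophil-associated ribonucleases, are a young mouse family with near-identical members. Ear2 had 2447 and 2600 counts and Ear1 1067 and 1236, with 95.1% coding identity between them. Ear3 and Ear12 carried identical counts, 775 and 1009, in both control libraries and in all 6 libraries of the study, so the table does not separate them. Of 11 listed members, 4 have no length in the annotation used, and shares within this family are uncertain.

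Chemokines held 1.17% of the counts, of which Ccl6 made up 83.0%. Ccl9 followed with 1675 and 1515 CPM, then Ccl17 (142 and 123 CPM) and Cxcl3 (94.2 and 83.2 CPM). No count was found for 16 of 40 listed chemokines, a share near that of all listed genes (9347 of 23413). Cytokines and related ligands held 0.711%. Apart from Grn, the most counts were on Spp1, Il1rn (711 and 680.1 CPM), which encodes the interleukin-1 receptor antagonist, Tgfb1 (278 and 271.5 CPM) and Il1a (181 and 173 CPM). Tgfb1 held 99.9% of the TGF-beta ligands, with Tgfb2 at 0 and 3 counts and Tgfb3 at 0 and 1. Of 31 listed cytokines, 17 reached 1 CPM and 6 had no count.

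Lectins and scavenger receptors held 1.38% ± 0.00405. Besides Clec7a, the most counts were on Lgals3 (2082 and 1922 CPM), which encodes galectin-3, Mrc1 (1856 and 1975 CPM), the mannose receptor, and Marco. Per kilobase Marco (2249 TPM) stood above Mrc1 (932 TPM). Marco held 92.7% and 91.9% of the class A scavenger receptors per kilobase, against 133 and 155 TPM of Msr1, with Scara3 and Scara5 at 0 counts. Siglec5 had 245 and 240.0 TPM and Cd33 95.6 and 98.6 TPM, and Cd33 led only under the coding length. Of 9 listed Siglecs, 6 reached 1 CPM, among them Siglec1 with 897 and 963 counts.

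Among Fc and complement receptors and complement genes, the most counts were on the integrin chains Itgb2 (2580 and 2508 CPM) and Itgax, then on C3, which encodes a complement protein (546 and 548 CPM), and Fcgr3. Per kilobase Itgb2 (2239 TPM) and Itgax (1606 TPM) stood above Fcgr3 (831 TPM) and C3 (279 TPM). The signalling adaptors Tyrobp (1843 TPM) and Fcer1g (1220.0 TPM), named after their values were seen, also stood above C3. Itgax held 77.8% and 78.1% of the beta2 integrin alpha chains per kilobase, with Itgam, the CD11b chain, at 233 and 240.1 TPM. Fcgr3 led the Fc gamma receptors with 91.3% ± 0.692, and Fcgr1, the high-affinity receptor, had 108 and 115 counts. Among TAM receptors, which recognise dying cells, Axl had 6023 and 6455 counts and Mertk 965 and 969, and Tyro3 had 3 and 2.

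Toll-like receptors sense microbial products. Tlr2, for bacterial lipoproteins, had 411 and 363 TPM, Tlr8 167 and 195 TPM, Tlr13 143 and 144 TPM, Tlr4, for LPS, 120.5 and 142 TPM, and Tlr7 113 and 126 TPM. Tlr2 stood above all others in both libraries, while the values of Tlr4 and Tlr7 overlapped between libraries. Tlr7 led under the shortest transcript.

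Antigen presentation was split. MHC class I genes with their loading machinery held 0.546%, and MHC class II genes held 0.0238%. In class I the most counts were on the general chaperones Calr (1904 and 1911 CPM) and Pdia3 (1031 and 989 CPM), the light chain B2m (946 and 1039 CPM) and the heavy chain H2-D1 (712 and 598.5 CPM). Calr alone made up 34.9% of the class I list. The class II list holds no general chaperone, so both shares are of unlike lists. Per kilobase B2m came first (3020.0 TPM), then Calr (2283 TPM), Pdia3 (953 TPM) and H2-D1 (814 TPM). In class II, H2-DMa (103.1 and 94.96 CPM), Cd74 (53.4 and 56.3 CPM) and H2-DMb1 (50.0 and 55.9 CPM), which load or chaperone peptides, had more counts than the antigen-presenting chain H2-Aa, at 66 and 68 counts, and stood above it per kilobase (129, 102 and 98.7 TPM against 10.4 TPM). Interferon-stimulated genes were low, at 0.0432% in all over 32 genes, with 18 at 1 CPM and Parp14 (72.5 and 73.1 CPM) and Stat2 (36.0 and 42.5 CPM) among those with the most counts. Immediate early genes held 0.133%, with the most counts on Klf6 (268 and 287 CPM), Fosl2 (218 and 209 CPM), Egr2 (163 and 162 CPM) and Klf4 (119.5 and 137 CPM). Per kilobase their order was Klf6 (172 TPM), Egr2 (143 TPM), Klf4 (111 TPM) and Fosl2 (85.3 TPM).

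Arg1 and Nos2 compete for arginine in macrophages. Arg1 had 207 and 265 counts, and Nos2 had 0 in both libraries, which allows up to 0.597 and 0.550 CPM. Arg2 had 2 counts in each library.

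The cells carried RNA of the cell cycle. All 27 cell cycle genes reached 1 CPM, and together they held 0.429% ± 0.0118 of the counts. The most counts were on Tuba1b, an alpha tubulin that non-dividing cells also make, at 1109 and 985 CPM. Mki67, the proliferation antigen Ki-67, had 733 and 734 CPM, Pcna, the sliding clamp of DNA polymerase, 339 and 344 CPM, and Top2a, topoisomerase II alpha, 282 and 289 CPM. Per kilobase Pcna (589 TPM) stood above Mki67 (191 TPM) and Top2a (143 TPM). Of the D-type cyclins, which start the cycle, Ccnd2 had 3240 and 3626 counts, Ccnd3 380 and 326, and Ccnd1 98 and 108.

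In energy metabolism, glycolysis held 0.844% and nuclear-encoded respiratory chain subunits 0.858%. Gapdh (2642 and 2607 CPM), Pkm (1404 and 1364 CPM), Aldoa (1059 and 959 CPM) and Ldha (812 and 769 CPM) had the most counts of the glycolytic class. The class holds Eno1 (131 and 128 CPM) but not its near-identical row Gm5506. The sum of these rows, 1140.3 and 1039.8 CPM, was above Aldoa. The glycolysis share, close to that of the respiratory chain, thus depends on whether Gm5506 is counted in it. Per kilobase Aldoa (1702 TPM) stood above Pkm (1488 TPM). Pkm held 100% of the pyruvate kinases and Ldha 99.4% of the lactate dehydrogenases, with Ldhb at 20 and 16 counts. Hexokinases were shared among Hk2 (44.2 and 45.0 TPM), Hk3 (37.4 and 34.2 TPM) and Hk1 (25.6 and 26.8 TPM). Slc2a1, which encodes the glucose transporter GLUT1, had 87.1 and 81.5 TPM, and Slc2a3, that of GLUT3, had 3 and 0 counts. In the respiratory class the most counts were on Atp5b (1010.5 and 954 CPM) and Atp5a1 (818 and 808 CPM), subunits of the ATP synthase. No listed gene carried the symbol prefix of mitochondrially encoded genes (mt-), so none was analysed here.

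Actin cytoskeleton genes were broadly high: 48 of 49 reached 1 CPM and 44 reached 100 CPM. Besides Actb and Tmsb4x, the most counts were on Lcp1 (4296 and 4309 CPM), the plastin of blood cells, and Actg1 (4028 and 3778 CPM), cytoplasmic gamma actin. Per kilobase Actg1 (5226 TPM) stood above Lcp1 (2929 TPM). Myh9 held 99.9% of the nonmuscle myosin heavy chains, Pfn1 99.8% of the profilins and Lcp1 97.5% of the plastins. For Actb and Actg1, with 88.6% coding identity, Actb held 72.1% and 72.8% of the actins per kilobase.

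Transcription factors of the macrophage lineage showed 1 dominant member in some families and several in others. Sfpi1 had 1255 and 1328 counts, and its relatives Spic and Spib had 1 count or none in each library. Pparg held 85.4% and 88.8% of the PPAR family per kilobase (77.0% to 88.3% over the length choices), Ppard had 229 and 202 counts and Ppara had 0.

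Bhlhe40 and Bhlhe41, linked to alveolar macrophage proliferation, were both present, at 251.5 and 252 TPM and 154 and 156 TPM, and Bhlhe41 led under the coding length and with no length. Cebpb had 353 and 322 TPM and Cebpa 190 and 166 TPM, with Cebpg ahead of both under the shortest transcript and the coding length. Among interferon regulatory factors Irf5 led with 153 and 141 TPM, and Irf7 had 7 and 6 counts. Stat6, the factor downstream of IL-4, led the STAT family with 131 and 131 TPM, and Stat3 had 68.3 and 62.9 TPM. No member of the GATA and NR4A families reached 20 counts in both libraries.

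Over the 86 paralogue families with a leading member at 20 counts or more in each library, the leader was the same in both libraries for all 86. The leader held a median of 80.3% of its family per kilobase, 50% or more in 76 families, and 90% or more in 30. For 71 families the leader was the same under all 5 length choices, and for 25 it held at least 90% under each of them. The share of the leader differed between libraries by a median of 0.774 percentage points and by at most 6.49, in the CIDE proteins. Of 428 listed family members, 273 reached 1 CPM in both libraries and 93 had no count in either. In 6 of the 86 families the leader and the second member shared 90% or more of their coding bases, so that their split is uncertain: Lyz2 and Lyz1, Chi3l3 and Chi3l4, Ear2 and Ear1, Csf2rb and Csf2rb2, Tuba1b and Tuba1c, and Bcl2a1b and Bcl2a1d.

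**Figure D4:**
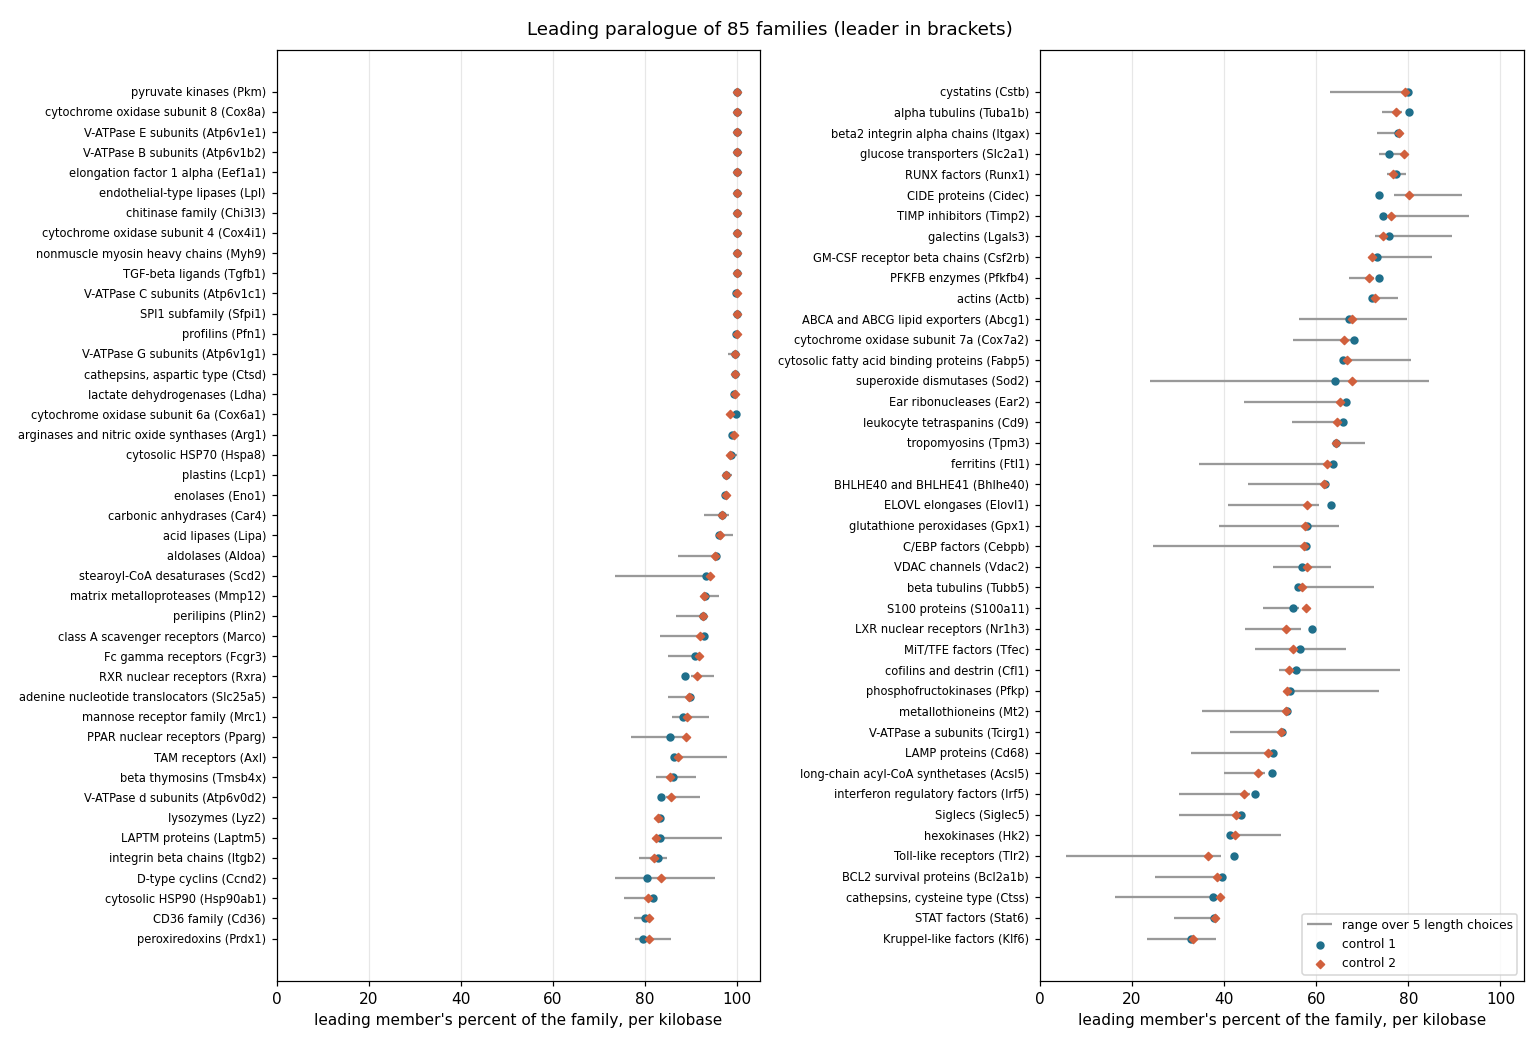
Percent of a family's level per kilobase held by its leading member (x axis) for 85 of the 86 paralogue families (y axis, leader in brackets) in control 1 (circles) and control 2 (diamonds), with the range of the mean over 5 choices of transcript length (grey lines). The left panel holds the families with the higher shares; long grey lines, as for superoxide dismutases and Toll-like receptors, mark leaders whose share depends on the length.

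For some genes most counts sat on a copy elsewhere in the genome. This was looked at after the counts had been seen, for 33 rows of at least 50 CPM that are pseudogenes or carry a provisional gene name. Of these 33, 25 matched a protein-coding gene at 95% identity or more over at least 200 bases. The copy was the higher of the pair by mean CPM in 21, and in each library in 18. Only the copy had to reach 50 CPM, so pairs with a low copy could not enter, and these counts partly follow from that choice. Gm13139 and Gm13251 are each the closest gene of the other, so this pair enters in both orders. Atp6v0c, the proton-binding c subunit of the V-ATPase, had 44 and 64 counts, and its processed pseudogene Atp6v0c-ps2 had 3638 and 3589. The open reading frames differ at 1 of 465 bases. The ribosomal protein gene Rpl26 had 0 counts in both libraries while Gm15772 had 2227 and 2222, at 99.5% identity. Akr1b3, aldose reductase, likewise had 0 counts and Gm6644 had 1394 and 1601. Gm5506 had 5071 and 4976 counts against 656 and 696 of Eno1, the enolase of most tissues.

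The first 90 bases of the Atp6v0c reading frame are the same at both loci, so reads from this stretch fit either (Atp6v0c at chr17:24163866-24169702, minus strand, and Atp6v0c-ps2 at chr6:37806086-37806550, plus strand).
Atp6v0c and Atp6v0c-ps2: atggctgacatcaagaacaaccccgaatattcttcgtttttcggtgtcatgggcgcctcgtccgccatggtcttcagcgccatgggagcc
The sum of both rows was 733 and 669.7 CPM for Atp6v0c with its copy, and 1140.3 and 1039.8 CPM for Eno1 with Gm5506.

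**Figure D5:**
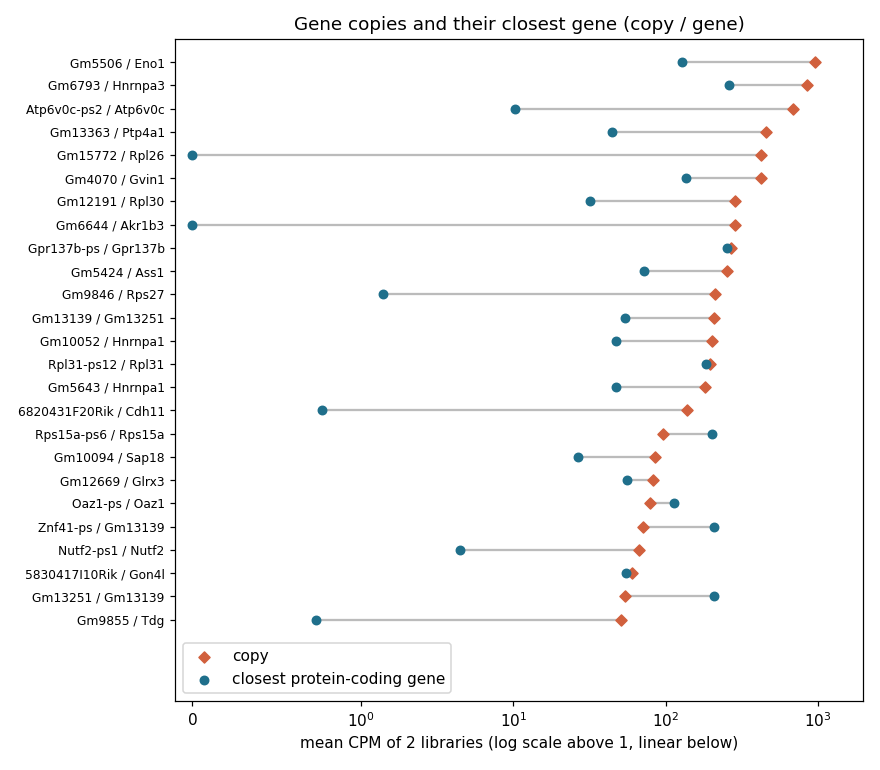
Mean CPM over both libraries (x axis, logarithmic above 1 CPM and linear below) of 25 gene copies (diamonds) and the closest protein-coding gene of each (circles), joined by a line. In 21 pairs the copy lies to the right, and the circles of Rpl26 and Akr1b3 sit at 0.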

How the data were processed

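Alveolar macrophages from lavage were profiled by mRNA-seq (KAPA mRNA HyperPrep, per the labels' protocols). The authors deposited whole-number counts per gene, and a log2 table that equals log2(CPM + 1) within 0.00411 for 10327 matched genes. TopHat2, edgeR and mm10 are named in the submitters' processing notes, without versions or roles; how the authors counted reads with several matches, and by strand, is not given in the sources used here. CPM is a count over the library total. TPM divides counts by the longest GENCODE vM21 transcript (GRCm38, the same build as mm10); 21777 symbols matched directly, 1260 by a RefSeq synonym and 376 not at all. The unmatched held 2.71% and 3.42% of counts, nearly all Rn45s, and carry no TPM. A gene counts as detected at 1 CPM in both libraries. A paralogue family's leader is its highest member per kilobase, with at least 20 counts in each library. Both control libraries gave 5022314 and 5454955 counts. Intervals for 0 counts cover counting error only. No significance test was made. A few genes and 1 sequence are not reported here. Genes named are the 30 highest by CPM, the 10 highest by TPM, the 4 highest of each class, family members, markers, and the 10 of at least 50 CPM that differ most between libraries; gene copies, promoter motifs and a few low members were added after their values were seen. The members and lists were chosen with earlier results of these data known. Alternatives were TMM scaling (edgeR 4.0.16, R 4.3.3), other lengths and minimums, the deposited log2 values, and each library alone. Other steps used Python 3.11.15, pandas 2.3.3, numpy 2.4.6, Biopython 1.88 (coding alignments) and blastn 2.17.0 (copies). The calculation of family shares was checked on simulated counts with known shares.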

Additional observations from a re-analysis of the deposited data

How the results depend on the processing

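The number of genes that hold as many counts as all others together fell from 551 to 270 per kilobase (TPM), since short, abundant messages weigh more there. It was 600.0 without Rn45s, an alternative chosen after seeing the data, and 549 to 552 with each library alone. The number of genes detected ranged from 9206 (5 CPM) to 12486 (1 count in both libraries), and from 10967 to 11002 with each library alone. Families with the same leader in both libraries numbered 84 to 86 under every length and count minimum tried. TMM scaling changed the levels of 357 named genes by a factor of 0.996 to 1.002, and the deposited log2 values gave levels 1.005 times as high for the 331 of these listed there. The share of a family's leader moved by more than its spread between libraries in 68 of 86 families under the shortest transcript and in 20 under the longest protein-coding transcript, the latter added after seeing the data. The share of a functional class moved by more than that spread in 30 of 31 classes as a share of TPM, in all 31 without the 10 most abundant genes in the total, and in 25 without Rn45s. With 2 libraries, depth limits the genes under about 1 CPM, and a spread from 2 values is itself imprecise. No paired analysis was possible because no result here comes from a test between groups.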

Other observations

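Of the 3871 genes at 50 CPM or more, 4 differed by over 1.5-fold between the control libraries and 2 by over 2-fold. Ass1, argininosuccinate synthase, had 522 counts in control 1 and 221 in control 2 (104 and 40.5 CPM), and H2-L, an MHC class I gene, had 311 and 720 counts. Of other class I rows, H2-D1 went the other way (3576 and 3265 counts) and H2-T22 the same way (93 and 172 counts). How reads were split among these class I rows was not tested. Gm13251, whose closest protein-coding gene is Gm13139, had 195 and 382 counts, and Lars2, the mitochondrial leucyl-tRNA synthetase, had 6103 and 10254. Lars2 was higher in the library that also had more Rn45s.

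Ass1 has a processed pseudogene, Gm5424, at 99.5% identity, with 1223 and 1441 counts. The sum of Ass1 and Gm5424 was 1745 and 1662 counts, or 347 and 305 CPM, so the sum differed by -0.19 on the log2 scale (control 2 over control 1) where Ass1 alone differed by -1.36. The same held for Rpl30 and its copy Gm12191: Rpl30 had 50 and 292 counts, Gm12191 had 1669 and 1310, and their sum differed by -0.22 where Rpl30 alone differed by 2.43. For Gm4070 and Gvin1, which share 99.97% of 9005 aligned bases, the rows moved in opposite directions (0.52 and -0.46) and the sum differed by 0.28. Gm13251 and Gm13139 went otherwise: both rows were higher in control 2 (0.85 and 0.43), and their sum differed by 0.52. Over the 25 pairs of copy and gene, the sums differed by a median of 0.12 in absolute log2 terms and by at most 0.52. The pair of Gm13251 and Gm13139, which gave that largest value, enters the 25 in both orders. Of the 10 genes that differed most between libraries, 3 belong to such a pair, as do 35 of all 3871 genes at 50 CPM or more. H2-L, among those 10, had no match in the annotation and could not enter such a pair. How the authors' counting placed reads that match both rows was not tested.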
